A study of Mus musculus with 4 samples.

Results

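The E2F genes E2f1 to E2f8, with Foxm1 and Mybl2 (which encodes B-MYB), were followed in primary cultured mouse astrocytes. Members were taken by name: deposited gene IDs without their version were matched to GENCODE vM21 symbols, and all 10 were found among the 55487 gene IDs measured. All 10 passed a minimum mean of 1 CPM (CPM is the count scaled to a common library total), as did 15596 genes in all.

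The study crossed the OASIS genotype with doxorubicin, with 1 library in each of 4 groups: OASIS deficient astrocytes given doxorubicin, untreated OASIS deficient astrocytes, OASIS wild-type astrocytes given doxorubicin and untreated OASIS wild-type astrocytes. OASIS, the product of Creb3l1, is a membrane-bound transcription factor of the endoplasmic reticulum, and doxorubicin is a topoisomerase poison that breaks DNA. Cells 5 days past confluence were exposed to doxorubicin at 1 µg/ml for 1 h and kept in fresh medium for 24 h. The sources used here do not give the strain, sex and age of the animals, the OASIS allele or the number of animals behind a culture.

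E2F proteins switch the genes of DNA replication and cell division on or off. E2F1, E2F2 and E2F3 pair with DP proteins and activate these genes once the retinoblastoma protein lets go of them, while E2F4 and E2F5 repress them together with the related pocket proteins p107 and p130 in resting cells. E2F6 represses through a Polycomb-type complex, and the atypical E2F7 and E2F8 bind without DP partners and repress E2F targets. B-MYB joins the MuvB proteins in S phase and helps bring in FOXM1, and these factors drive the genes of G2 and mitosis.

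The libraries held 17481188 to 22559613 counts in total. Creb3l1, the gene under test, had 235 and 260 counts in the deficient libraries with doxorubicin and without, against 636 and 966 in the wild-type libraries with doxorubicin and without. This was 0.428-fold the wild-type level after doxorubicin (95% counting interval 0.367 to 0.498) and 0.311-fold untreated (0.271 to 0.358), so its RNA was lower in both deficient libraries but not at 0. Xist, expressed from the inactive X chromosome, had 2742 and 2547 counts in the libraries labelled doxorubicin (deficient and wild type) and 0 and 1 in those labelled untreated, and 4 Y-linked genes showed the opposite split. The treatment label and the sex of the cultured cells therefore cannot be told apart, while each deficient library and its wild-type counterpart had the same pattern. All 10 members lie on autosomes.

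Folds between single libraries are ratios of counts scaled by TMM (trimmed mean of M values). Their 95% intervals cover counting error only, because there are no replicate cultures, and a difference is called by size when log2(CPM + 1) differs by at least 1. The only test across libraries was an additive model over all 4 (genotype and treatment, edgeR's quasi-likelihood test, Benjamini-Hochberg adjustment over 15596 genes). It takes the other label as the replicate and has 1 residual degree of freedom, so its p-values measure how far the libraries agree, with no replicate of any group. Whether the genotypes overlapped is given below for description only. The share of all genes without overlap was not counted, so a lack of overlap is not read as a result about the members.

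In OASIS deficient astrocytes 5 of the 10 members rose and 0 fell by the additive test at an adjusted p of at most 0.05, where 12.6% of all genes rose and 10.6% fell. The 5 were E2f8, E2f7, Foxm1, Mybl2 and E2f5. By size, 6 members were higher and 0 lower in deficient cells after doxorubicin, where 10.7% of all genes were higher and 9.55% lower. Untreated, 5 were higher and 0 lower, beside 9.79% and 10.2% of all genes. The median member differed by 1.17 on the log2(CPM + 1) scale after doxorubicin and by 1.07 untreated, against 0.02 and -0.03 for all genes. In bulk RNA, more dividing cells in the deficient cultures and more of these RNAs per cell cannot be told apart.

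The sequence around the start was examined for short E2F, CHR and CCAAT words in the members that have a RefSeq promoter window. E2f4, E2f5 and Foxm1 had no window and were not examined, although E2f5 and Foxm1 rose. RefSeq promoter windows (GRCm38.p6, 250 bases before to 50 after the start) are shown for E2f8, E2f7 and Mybl2, which rose, for E2f3, which was high in a single library, and for E2f6, which was nearly level. Capitals mark an E2F word (TTGGCGC or else TTCCCGC or else TTGCCGC or else TTCGCGC or else GGCGGGA), a CHR word (TTTGAA) or a CCAAT word, on either strand. GGCGGGA overlaps the reverse complement of TTCCCGC, so 1 site can be counted as both.
E2f8, chr7:48881547-48881846, minus strand: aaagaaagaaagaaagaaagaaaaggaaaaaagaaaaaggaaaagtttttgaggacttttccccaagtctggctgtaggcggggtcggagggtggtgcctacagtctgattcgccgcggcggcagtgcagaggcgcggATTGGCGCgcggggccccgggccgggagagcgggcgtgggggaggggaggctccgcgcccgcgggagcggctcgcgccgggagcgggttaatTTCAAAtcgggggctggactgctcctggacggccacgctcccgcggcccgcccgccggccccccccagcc
E2f7, chr10:110745189-110745488, plus strand: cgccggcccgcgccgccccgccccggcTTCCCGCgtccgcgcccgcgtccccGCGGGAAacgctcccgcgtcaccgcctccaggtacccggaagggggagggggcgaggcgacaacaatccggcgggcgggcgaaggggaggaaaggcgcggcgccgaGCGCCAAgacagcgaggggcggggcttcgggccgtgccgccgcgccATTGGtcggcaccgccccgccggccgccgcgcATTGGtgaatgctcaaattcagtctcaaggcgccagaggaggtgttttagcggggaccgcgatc
Mybl2, chr2:163054385-163054684, plus strand: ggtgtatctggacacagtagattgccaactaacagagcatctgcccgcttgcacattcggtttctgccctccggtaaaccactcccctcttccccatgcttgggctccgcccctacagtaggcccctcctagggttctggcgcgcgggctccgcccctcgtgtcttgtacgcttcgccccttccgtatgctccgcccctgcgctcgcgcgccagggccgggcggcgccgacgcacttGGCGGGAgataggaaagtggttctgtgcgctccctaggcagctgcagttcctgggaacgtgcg
E2f3, chr13:29986014-29986313, minus strand: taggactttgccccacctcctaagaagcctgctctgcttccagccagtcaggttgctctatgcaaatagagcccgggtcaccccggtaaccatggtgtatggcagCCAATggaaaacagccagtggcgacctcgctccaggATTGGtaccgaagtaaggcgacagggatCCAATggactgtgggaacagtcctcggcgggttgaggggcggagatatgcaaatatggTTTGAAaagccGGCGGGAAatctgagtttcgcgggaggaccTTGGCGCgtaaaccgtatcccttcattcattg
E2f6, chr12:16810715-16811014, plus strand: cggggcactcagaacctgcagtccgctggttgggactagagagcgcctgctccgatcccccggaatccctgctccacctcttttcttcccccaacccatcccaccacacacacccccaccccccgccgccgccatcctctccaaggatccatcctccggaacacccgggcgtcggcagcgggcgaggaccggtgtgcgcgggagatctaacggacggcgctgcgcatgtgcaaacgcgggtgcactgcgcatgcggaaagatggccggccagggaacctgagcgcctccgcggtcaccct

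The E2f8 window held an E2F word at -111 to -105 from the start, sharing bases with a CCAAT word, and a reversed CHR word at -20 to -15. The E2f7 window held 3 E2F words and 2 CCAAT words and no CHR word, and Mybl2 had a single E2F word at -13 to -7. The upstream E2f3 window held 3 E2F matches, of which 2 overlap, with a CHR word at -23 to -18 and 3 CCAAT words. E2f2, which was not called by genotype, had 1 E2F word and 1 CCAAT word in its upstream window. Its downstream window held 1 CHR word and 3 CCAAT words. Of 32851 windows in the RefSeq table, 17.3% held an E2F word, 17.9% a CHR word, 37.4% a CCAAT word and 1.6% both an E2F and a CHR word. E2f6 had none of these words, and neither did the E2f1 window, whose RefSeq start lies 466 bases inside the GENCODE gene. These matches describe the letters only.

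**Figure D1:**
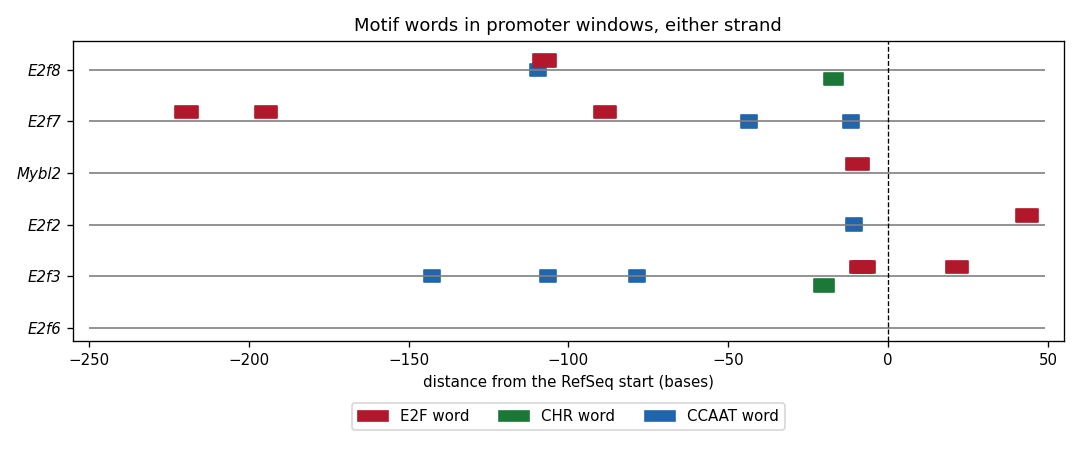
Positions of the E2F, CHR and CCAAT words in the promoter windows of 6 members, in bases from the RefSeq start, on either strand. E2f8 and E2f3 hold an E2F word and a CHR word each, and E2f6 holds no match.

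The atypical repressors showed the widest range among the E2F genes. E2f8 (ENSMUSG00000046179, GRCm38 chr7:48866429-48881596, minus strand) had 371 and 218 counts in the deficient libraries with doxorubicin and without, against 22 and 9 in the wild-type libraries with doxorubicin and without. Both deficient libraries lay far above both wild-type libraries, where E2f8 rested on few counts but stayed above the floor of 3 counts. Its level in deficient cells was 19.5-fold the wild-type level after doxorubicin (12.7 to 31.5) and 28.0-fold untreated (14.5 to 62.1). By edgeR's additive test E2f8 rose by 4.51 (log2 fold, SE 0.548, adjusted p = 1.98e-05).

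E2f7 (chr10:110745439-110787384, plus strand), which forms pairs with E2F8, moved less. It had 301 and 159 counts in the deficient libraries with doxorubicin and without, against 147 and 55 in the wild-type libraries with doxorubicin and without. The groups did not overlap once scaled, with 9.24 CPM in the deficient untreated library, its lower deficient value, and 6.42 CPM in the wild-type doxorubicin library, its higher wild-type value. E2f7 was 2.37-fold higher after doxorubicin (1.94 to 2.91) and 3.35-fold higher untreated (2.45 to 4.63), and rose by 1.49 in the additive test (SE 0.464, edgeR adjusted p = 0.0296). That call was lost with DESeq2 (adjusted p = 0.0658), with no minimum on CPM (edgeR, 0.0652) and with treatment left out of the edgeR model (0.104). It was also lost without the deficient doxorubicin library (0.523), the deficient untreated library (0.169) or the wild-type untreated library (0.165), each with no treatment term. Over all alternatives run the adjusted p lay between 0.0159 and 0.523.

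FOXM1, a forkhead activator of mitotic genes, had the lowest adjusted p of the 10 members. Foxm1 (chr6:128362967-128376146, plus strand) had 944 and 650 counts in the deficient libraries with doxorubicin and without, against 113 and 126 in the wild-type libraries with doxorubicin and without. The groups did not overlap, and the lower deficient value was several times the higher wild-type value. The fold over wild type was 9.67 after doxorubicin (7.95 to 11.9) and 5.97 untreated (4.93 to 7.28). The additive log2 fold was 2.92 (SE 0.304, edgeR adjusted p = 3.86e-06). Tex52, which overlaps Foxm1 on the same strand, had 13, 16, 57 and 129 counts in the deficient doxorubicin, deficient untreated, wild-type doxorubicin and wild-type untreated libraries, so its counts ran the other way.

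Mybl2 (chr2:163054687-163084688, plus strand), the MuvB-binding member of the MYB family, had 375 and 296 counts in the deficient libraries with doxorubicin and without, against 101 and 59 in the wild-type libraries with doxorubicin and without. Both deficient values again exceeded both wild-type values. Mybl2 was 4.30-fold higher after doxorubicin (3.44 to 5.41) and 5.81-fold higher untreated (4.38 to 7.81), and rose by 2.31 in the additive test (SE 0.419, edgeR adjusted p = 0.000794). Without the deficient doxorubicin library, and with no treatment term, the edgeR adjusted p was 0.0588, the highest of all alternatives, of which the lowest was 1.63e-05.

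**Figure D2:**
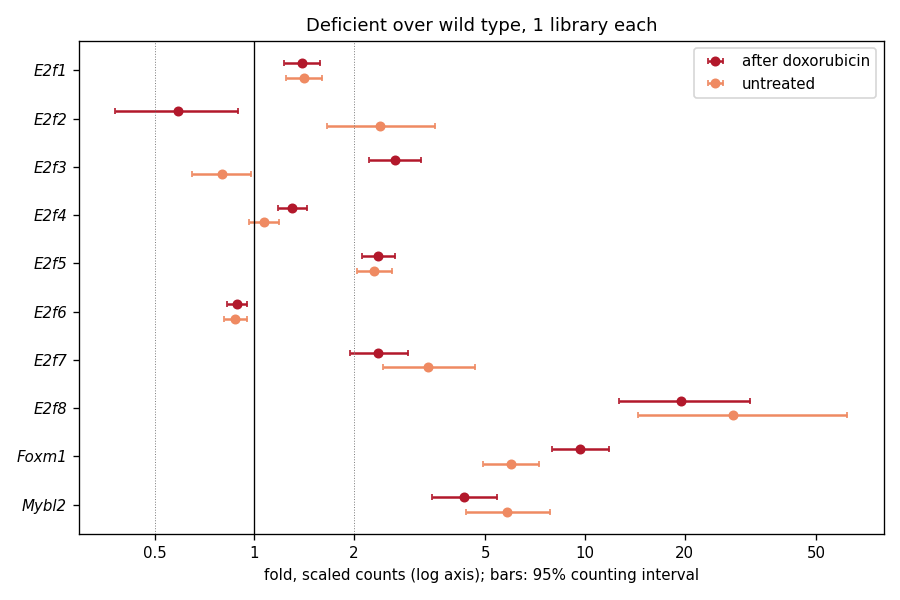
Fold of each member in deficient over wild-type libraries, after doxorubicin and untreated, on a log axis. Points are ratios of TMM-scaled counts from 1 library each, bars are 95% counting intervals and dotted lines mark a 2-fold difference either way. E2f8 lies farthest to the right, at 19.5 and 28.0, and E2f6 lies just below 1 in both comparisons.

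Among the activators, E2f1 (chr2:154559407-154569892, minus strand) differed little. It had 562 and 552 counts in the deficient libraries with doxorubicin and without, against 468 and 452 in the wild-type libraries with doxorubicin and without. The deficient level was 1.39-fold the wild-type level after doxorubicin (1.23 to 1.58) and 1.41-fold untreated (1.25 to 1.60). The genotypes did not overlap once scaled, with 28.4 CPM in the deficient doxorubicin library and 22.7 CPM in the wild-type untreated library. Both intervals lay above 1, but E2f1 was not called by edgeR (log2 fold 0.49, SE 0.256, adjusted p = 0.197).

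E2f3 (chr13:29906575-29986063, minus strand), an activator that also gives a shorter isoform, was high in a single library. It had 411 and 161 counts in the deficient libraries with doxorubicin and without, against 179 and 234 in the wild-type libraries with doxorubicin and without. The deficient doxorubicin library stood above the others, and the deficient untreated library lay between the wild-type libraries once scaled. E2f3 was 2.66-fold the wild-type level after doxorubicin (2.23 to 3.19) and 0.796-fold untreated (0.647 to 0.977). The additive genotype term was 0.55 (SE 0.448, edgeR adjusted p = 0.431), an average over opposite differences.

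E2f2 (chr4:136172394-136196057, plus strand), the third activator, was the lowest member per transcript length in both deficient libraries. It had 35 and 91 counts in the deficient libraries with doxorubicin and without, against 69 and 44 in the wild-type libraries with doxorubicin and without. The genotypes overlapped, with the deficient libraries holding both the highest and the lowest value. The ratio to wild type was 0.587 after doxorubicin (0.379 to 0.894) and 2.39 untreated (1.65 to 3.51), and the untreated difference of 0.97 on the log2(CPM + 1) scale fell just short of a call by size. EdgeR gave no additive call (log2 fold 0.25, SE 0.883, adjusted p = 0.880).

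Of the repressors, E2f5 was the member that moved. E2f5 (chr3:14578641-14606309, plus strand), a partner of p130, had 963 and 788 counts in the deficient libraries with doxorubicin and without, against 470 and 396 in the wild-type libraries with doxorubicin and without. The groups did not overlap, which was also so in CPM for E2f1 and E2f4, neither of them called. The share of all genes without such overlap was not counted. Its fold over wild type was 2.37 after doxorubicin (2.12 to 2.65) and 2.30 untreated (2.04 to 2.61), and it rose by 1.22 in the additive test (SE 0.232, edgeR adjusted p = 0.00117). Without the deficient doxorubicin library, and with no treatment term, the edgeR adjusted p was 0.0697, the highest of all alternatives, of which the lowest was 1.69e-05. The opposite-strand gene 1810022K09Rik overlaps E2f5 and had 867, 797, 811 and 606 counts in the deficient doxorubicin, deficient untreated, wild-type doxorubicin and wild-type untreated libraries, and the library kit did not mark strand, so reads of the overlap could not be assigned by strand.

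E2f4 and E2f6 carried much of the E2F RNA in every library and were not called. E2f4 (chr8:105297663-105305370, plus strand), the main repressor of resting cells, had 792 and 676 counts in the deficient libraries with doxorubicin and without, against 704 and 731 in the wild-type libraries with doxorubicin and without. In CPM the genotypes did not overlap for E2f4, with 39.3 in the deficient untreated library and 36.7 in the wild-type untreated library. The E2f4 ratio was 1.30 after doxorubicin (1.18 to 1.44) and 1.07 untreated (0.962 to 1.19). The untreated difference turned from 0.10 (log2(CPM + 1)) to -0.05 on the log2(TPM + 1) scale. E2f6 (chr12:16810963-16839742, plus strand) had 1443 and 1098 counts in the deficient libraries with doxorubicin and without, against 1882 and 1452 in the wild-type libraries with doxorubicin and without. The genotypes overlapped once scaled, at 73.0 CPM in the deficient doxorubicin library and 72.9 CPM in the wild-type untreated library. E2f6 was 0.888-fold the wild-type level after doxorubicin (0.828 to 0.951) and 0.875-fold untreated (0.808 to 0.947). The edgeR adjusted p was 0.502 for E2f4 and 0.480 for E2f6.

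Set per transcript length, the repressor class led in every library. TPM, which scales reads by transcript length as well as by library total, allows levels of different genes to be compared. E2f5 was the highest member in deficient cells, at 42.2 TPM with doxorubicin and 38.6 TPM without, against 18.9 TPM with doxorubicin and 19.2 TPM without in wild-type cells. E2f6 was the highest in wild-type cells, with 38.8 and 32.8 TPM in the deficient libraries with doxorubicin and without, against 47.4 and 42.1 TPM in the wild-type libraries with doxorubicin and without. E2f4 took the third place in both deficient libraries and the second in both wild-type libraries, with 22.3 to 27.3 TPM throughout. The order of E2f5 and E2f4 thus changed with genotype: their TPM ratio was 1.59 and 1.46 in the deficient libraries with doxorubicin and without, against 0.851 and 0.704 in the wild-type libraries with doxorubicin and without. With 1 library a group there is no spread between replicates against which neighbouring ranks could be judged.

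The low end of that order also changed. E2f8 had 6.42 and 4.52 TPM in the deficient libraries with doxorubicin and without, against 0.346 and 0.392 TPM in the wild-type libraries with doxorubicin and without, where it was last of the 10. Foxm1 had 14.2 and 11.1 TPM in the deficient libraries with doxorubicin and without, against 1.35 and 2.21 TPM in the wild-type libraries with doxorubicin and without. The TPM ratio of Foxm1 to E2f1 was 1.07 and 0.759 in the deficient libraries with doxorubicin and without, against 0.133 and 0.186 in the wild-type libraries with doxorubicin and without. FOXM1 RNA thus stood near that of the main activator in deficient cells and well below it in wild-type cells.

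Of the summed TPM of the 8 E2F genes, the atypical pair made up 10.0% and 8.26% in the deficient libraries with doxorubicin and without, against 3.27% and 1.5% in the wild-type libraries with doxorubicin and without. The repressors E2f4 to E2f6 made up 76.4% and 77.3% in the deficient libraries, against 84.3% and 83.0% in the wild-type libraries, in the same order. The activators took between 12.4% and 15.5% in all 4 libraries, with the genotypes overlapping. Activator to atypical ratios narrowed in deficient cells: E2f1 TPM was 2.08 and 3.25 times that of E2f8 in the deficient libraries with doxorubicin and without, against 29.3 and 30.3 times in the wild-type libraries with doxorubicin and without. The untreated wild-type ratio rests on 9 E2f8 counts. The E2f8 transcript length implied by its count and TPM was 1674 bases there, against 3852 bases in the wild-type doxorubicin library. The closeness of 29.3 and 30.3 therefore carries little weight. For E2f7 the implied length was 1971 bases in the deficient untreated library and 3323 bases in the wild-type untreated library. Its untreated TPM of 5.93 against 1.21 thus differs more than the 3.35-fold on counts, and the shares of the atypical pair depend on these lengths as well.

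**Figure D3:**
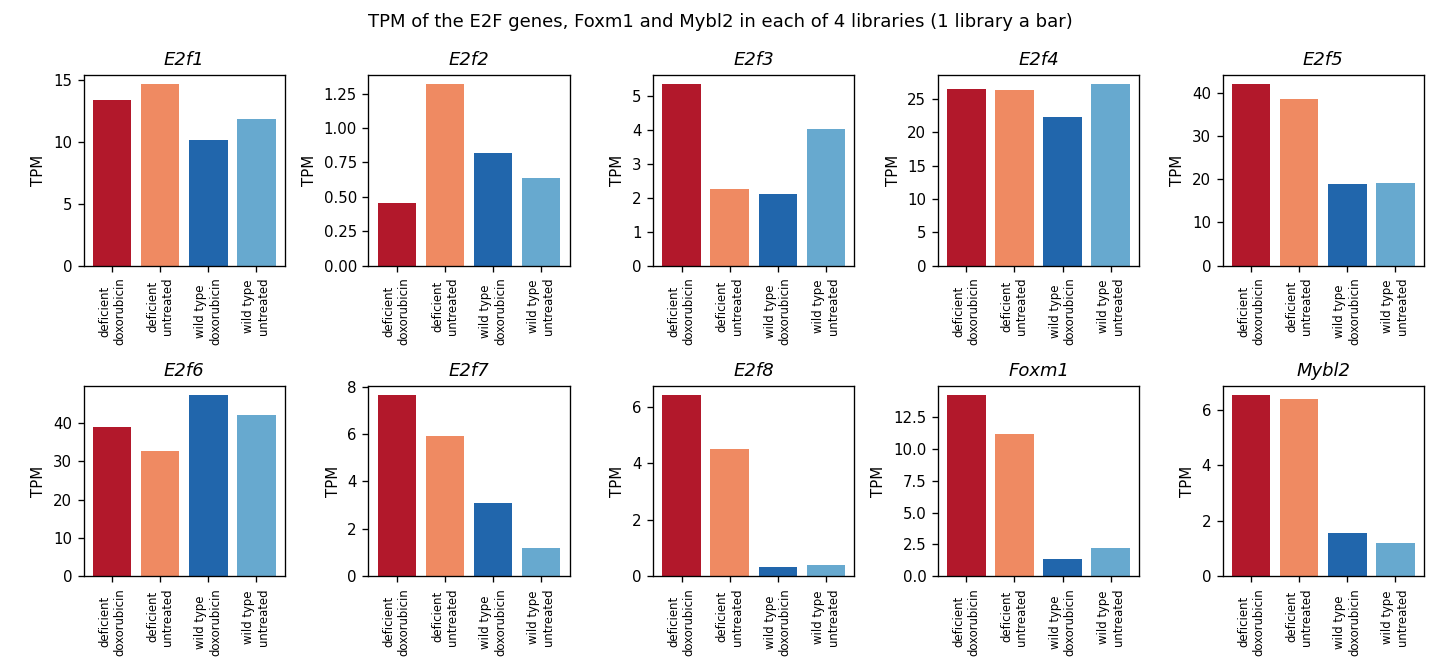
TPM of each of the 10 members in the deficient doxorubicin, deficient untreated, wild-type doxorubicin and wild-type untreated libraries, 1 bar a library with no replicates and an axis of its own from 0 for each gene. E2f8, Foxm1, Mybl2, E2f7 and E2f5 are higher in both deficient libraries, while E2f3 is highest in the deficient doxorubicin library, at 5.35 TPM, and E2f2 in the deficient untreated library, at 1.32 TPM.

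Few members differed with doxorubicin by size and 0 by test. In deficient cells 1 member was higher and 1 lower with doxorubicin by size, beside 1.58% and 1.93% of all genes. E2f3 was 2.22-fold the untreated level (1.85 to 2.68), and E2f2 was 0.335-fold (0.220 to 0.499). In wild-type cells 0 members were called in either direction, beside 4.08% higher and 5.45% lower among all genes. There the ratio was 0.665 for E2f3 (0.545 to 0.812), 1.36 for E2f2 (0.921 to 2.04) and 2.33 for E2f7 (1.70 to 3.23), the last at 0.98 on the log2(CPM + 1) scale. The E2f3 ratio thus lay on opposite sides of 1 in the 2 genotypes with intervals that exclude 1, while the wild-type E2f2 interval includes 1 and leaves its direction unresolved. With 1 library a group these differences have no replicate check.

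By the additive doxorubicin term of edgeR, 0 members rose and 0 fell at an adjusted p of at most 0.05, and 0 had an unadjusted p under 0.05. Among all genes 0.0192% rose and 0.141% fell, and 864 had an unadjusted p under 0.05. Those that rose include Xist, and those that fell include the 4 Y-linked genes, so the shares hold the sex difference too. DESeq2 also called 0 members, with no adjusted p given for most of them and 0 at an unadjusted p under 0.05. The lowest unadjusted p was that of E2f7, at 0.0537 (adjusted p = 0.891), and E2f7 was higher with doxorubicin in both genotypes, 1.65-fold in deficient cells (1.36 to 2.01) and 2.33-fold in wild-type cells. Foxm1 was 1.26-fold the untreated level in deficient cells (1.14 to 1.40) and 0.780-fold in wild-type cells (0.600 to 1.01). E2f8 was 1.48-fold in deficient cells (1.25 to 1.76) and 2.13-fold in wild-type cells (0.941 to 5.25), where 22 and 9 counts leave the direction unresolved. E2f1, E2f4, E2f5, E2f6 and Mybl2 had ratios between 0.838 and 1.49 in both genotypes.

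The doxorubicin response in deficient cells minus that in wild-type cells (log2(CPM + 1)) was 1.61 for E2f3 and -1.51 for E2f2, and these were the members called by size, 1 higher and 1 lower, beside 7.66% and 6.05% of all genes. The other 8 members had differences between -0.32 and 0.63, below the size of a call.

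**Figure D4:**
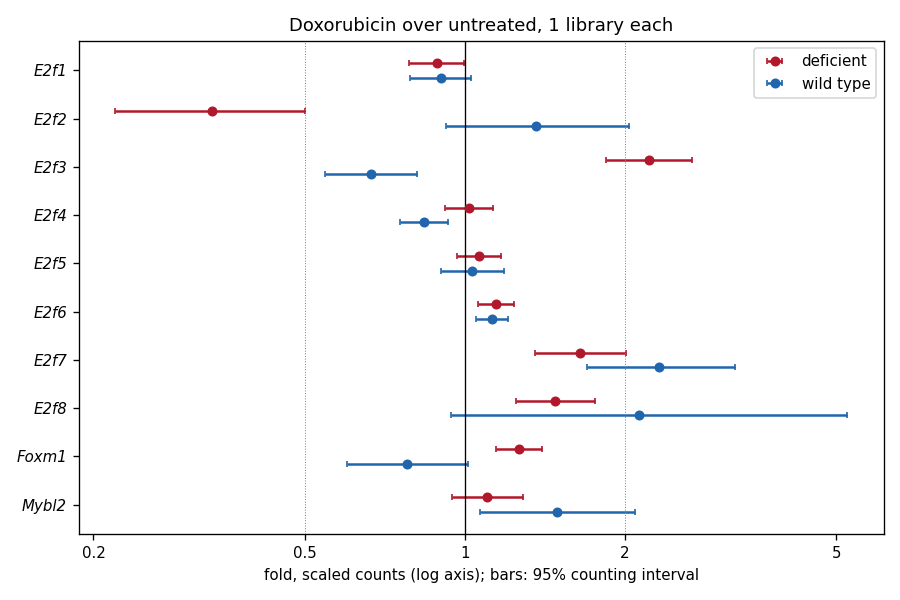
Fold of each member with doxorubicin over untreated, in deficient and in wild-type cells, on a log axis. Points are ratios of TMM-scaled counts from 1 library each and bars are 95% counting intervals. E2f3 lies at 2.22 in deficient cells and at 0.665 in wild-type cells, and E2f2 at 0.335 and 1.36.

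Proteins that work with the E2Fs did not move as a block. Of the DP partners, Tfdp2 rose in deficient cells by 0.94 (SE 0.215, edgeR adjusted p = 0.00452), while Tfdp1, the main DP gene, had 2938 and 2352 counts in the deficient libraries with doxorubicin and without, against 2606 and 2073 in the wild-type libraries with doxorubicin and without (adjusted p = 0.0507). Among the 3 pocket protein genes, Rbl1 (p107), itself an E2F target, rose by 1.31 (SE 0.389, edgeR adjusted p = 0.0229), and Rbl2 (p130), which holds the repressor complex of resting cells, fell by 1.44 (SE 0.161, edgeR adjusted p = 8.44e-06). Rbl2 had 869 and 744 counts in the deficient libraries with doxorubicin and without, against 2808 and 2256 in the wild-type libraries with doxorubicin and without. Rb1 was not called (log2 fold -0.43, SE 0.180, edgeR adjusted p = 0.0981).

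Of the 5 genes of the MuvB core, 1 rose and 0 fell by edgeR's additive test, with 12.6% and 10.6% among all genes. Lin54, its DNA-binding subunit, rose by 1.28 (SE 0.378, adjusted p = 0.0225), with 432 and 338 counts in the deficient libraries with doxorubicin and without, against 302 and 108 in the wild-type libraries with doxorubicin and without. Lin9, Lin37, Lin52 and Rbbp4 had adjusted p-values between 0.0659 and 0.488. Of the 2 other MYB genes, Myb, named after its values were seen, had 60 and 74 counts in the deficient libraries with doxorubicin and without, against 11 and 0 in the wild-type libraries with doxorubicin and without, and rose at an edgeR adjusted p of 0.0371. It was 6.31-fold higher after doxorubicin (3.29 to 13.3) and at least 28.5-fold higher untreated, against the floor of 3 counts in that library (exact counting interval from 22.6 upward). Mybl1 lay the other way, with 428 and 317 counts in the deficient libraries with doxorubicin and without, against 641 and 564 in the wild-type libraries. Its ratio to wild type was 0.773 after doxorubicin (0.682 to 0.875) and 0.650 untreated (0.565 to 0.748). EdgeR did not call Mybl1 (log2 fold -0.50, SE 0.268, adjusted p = 0.210). Of 8 genes of the E2F6 complex 1 rose and 1 fell, close to the shares of all genes: Cbx3, a heterochromatin protein, rose by 1.20 (SE 0.202, edgeR adjusted p = 0.00042), and Mga, the MAX partner, fell by 0.94 (SE 0.206, edgeR adjusted p = 0.00362).

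Most of the listed target genes of these factors were higher in deficient cells. Both target lists were chosen with earlier results of these data known, so their counts describe the libraries and are not an independent check. Of 30 genes of the G1/S transition and DNA replication that E2F proteins control, 28 rose and 0 fell by the additive test, which called 12.6% of all genes higher and 10.6% lower. By size 26 of 30 were higher and 0 lower in each genotype comparison, beside 10.7% higher and 9.55% lower among all genes after doxorubicin and 9.79% and 10.2% untreated, with a median log2(CPM + 1) difference of 2.25 after doxorubicin and 1.86 untreated, against 0.02 and -0.03 for all genes. Ccna2 (cyclin A2) had 3217 and 1877 counts in the deficient libraries with doxorubicin and without, against 251 and 110 in the wild-type libraries with doxorubicin and without. Ccna2 was 14.8-fold higher after doxorubicin (13.0 to 16.9) and 19.7-fold higher untreated (16.3 to 24.2). Mcm10, a replication initiation factor, had 337 and 247 counts in the deficient libraries with doxorubicin and without, against 0 and 12 in the wild-type libraries with doxorubicin and without, which is at least 130.0-fold higher after doxorubicin against the floor of 3 counts in that library (exact counting interval from 105 upward). The 2 genes without a call, Cdc25a and Chek1, had edgeR adjusted p-values of 0.708 and 0.0782.

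Of 30 genes of G2 and mitosis that FOXM1 and the B-MYB and MuvB complex control, 29 rose and 1 fell by the additive test, beside the same 12.6% and 10.6% of all genes. By size 29 were higher and 1 lower after doxorubicin, and 28 higher and 1 lower untreated. The median difference was 3.92 after doxorubicin and 3.51 untreated. Setting genes at 0 counts in a library at their lower bound could not change it, because these genes already lay above the median. Aurkb, the Aurora kinase that corrects chromosome attachment in mitosis, had 2526 and 1139 counts in the deficient libraries with doxorubicin and without and 0 in both wild-type libraries, at least 975-fold higher after doxorubicin and 439-fold higher untreated against 3 counts per library (exact counting intervals from 792 and from 357 upward). Plk1, another mitotic kinase, had 1684 and 946 counts in the deficient libraries with doxorubicin and without, against 26 and 78 in the wild-type libraries with doxorubicin and without. The gene that fell was Gtse1, named after its values were seen, which is also a p53-induced gene: it had 931 and 675 counts in the deficient libraries with doxorubicin and without, against 3156 and 2196 in the wild-type libraries with doxorubicin and without (log2 fold -1.52, SE 0.159, edgeR adjusted p = 4.18e-06).

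With doxorubicin over untreated, 0 of the 60 targets were called by edgeR in either direction, beside 0.0192% higher and 0.141% lower among all genes. In deficient cells 30 of 30 G2/M targets had a ratio above 1, with a median log2(CPM + 1) difference of 0.53. By size 0 were called, beside 1.58% higher and 1.93% lower among all genes. Of all 15596 genes 8387 had a ratio above 1, with a median of 0.03. In wild-type cells 17 of 30 were above 1, as were 7710 of all genes, with 4 called higher and 3 lower beside 4.08% and 5.45% of all genes, among them Aurka at 1.76 and Nek2 at -2.08. The wild-type values rest on few counts, 86 and 8 for Aurka and 6 and 86 for Nek2 with doxorubicin and without.

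**Figure D5:**
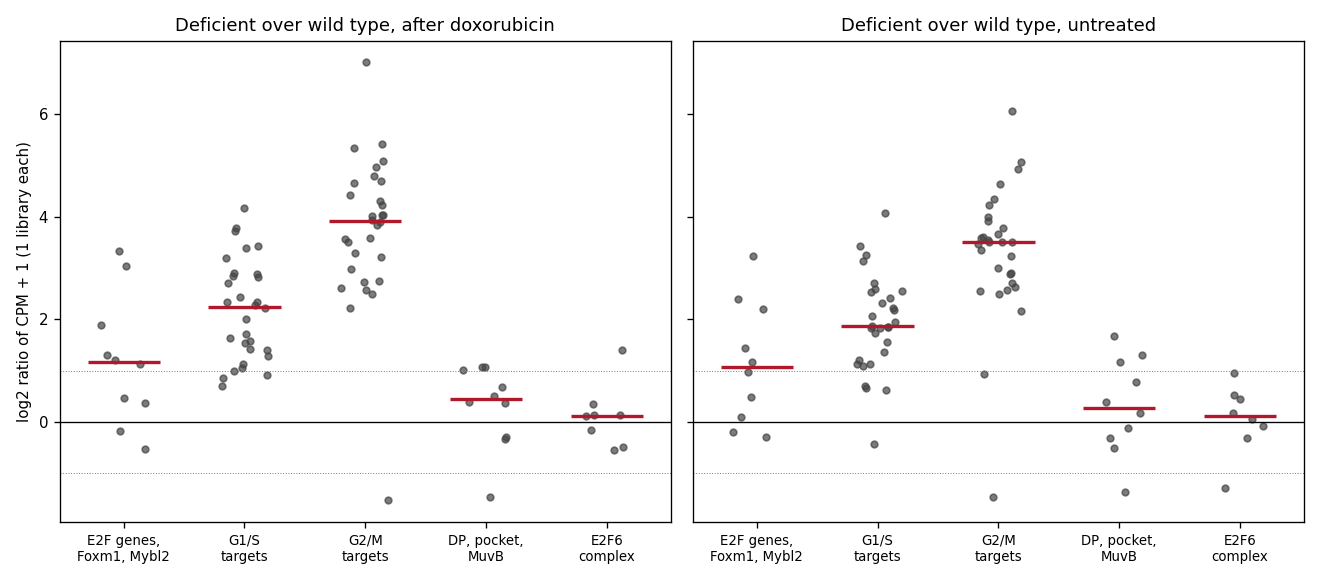
Log2 ratio of CPM + 1 in deficient over wild-type libraries for single genes (points) of 5 groups, after doxorubicin and untreated, with the median of each group as a red line and dotted lines at a 2-fold difference. The G2/M targets have medians of 3.92 and 3.51 and the G1/S targets of 2.25 and 1.86, while the E2F genes with Foxm1 and Mybl2 have 1.17 and 1.07 and the E2F6 complex 0.12 and 0.11.

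Cdkn1a encodes p21, the inhibitor of cyclin-dependent kinases through which p53 keeps pocket proteins bound to E2Fs. It had 3926 and 3204 counts in the deficient libraries with doxorubicin and without, against 34221 and 25804 in the wild-type libraries with doxorubicin and without. Cdkn1a fell by 2.86 in the additive test (SE 0.0991, edgeR adjusted p = 6.58e-11), and was 0.133-fold the wild-type level after doxorubicin (0.129 to 0.137) and 0.144-fold untreated (0.138 to 0.149). Mdm2, another p53 target, fell by 2.26 (SE 0.123, edgeR adjusted p = 2.99e-09), while Trp53 itself was not called (adjusted p = 0.187). With doxorubicin over untreated, Cdkn1a was 1.066-fold in deficient cells (1.018 to 1.118) and 1.154-fold in wild-type cells (1.135 to 1.172). Mdm2 differed by -0.087 and 0.061 (log2(CPM + 1)), in the same order. The additive doxorubicin term called 0 of these 3 genes. These p53 targets thus differed little with the doxorubicin label, as did most members, and the cause was not tested.

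Markers of some other cell types differed along with the members. Beside the counts by the additive genotype test below, 12.6% of all genes rose and 10.6% fell. Astrocyte markers, checked against the labelled cell type, summed to 10120 and 11460 CPM in the deficient libraries with doxorubicin and without, against 4004 and 4110 CPM in the wild-type libraries with doxorubicin and without, and 9 of 12 rose by the additive test. Gfap alone gave 5168 and 6589 CPM of these sums in the deficient libraries, against 1120 and 1140 CPM in the wild-type libraries, in the same order, and the median marker differed by 0.73 after doxorubicin and 0.71 untreated (log2(CPM + 1)). Gjb6 was at 0 in the untreated wild-type library. Oligodendrocyte lineage markers summed to 1086 and 1088 CPM in the deficient libraries, against 348 and 475 CPM in the wild-type libraries, in the same order, and 10 of 12 rose. Sox10, Mog and Mobp were at 0 in at least 1 wild-type library. Neural progenitor markers summed to 7554 and 7668 CPM in the deficient libraries, against 5013 and 4618 CPM in the wild-type libraries, with 5 of 10 higher and 0 lower by test. Of neuron markers 5 of 9 tested rose and 0 fell, with sums of 443 and 415 CPM in deficient libraries against 215 and 238 CPM in wild-type libraries. By size 5 of the 9 were higher and 2 lower after doxorubicin, and 5 higher and 1 lower untreated, the lower ones being Nefm (after doxorubicin) and Nefl (in both), which were at 69 against 307 counts and at 0 against 34 after doxorubicin. Among all genes 10.7% were higher and 9.55% lower by size after doxorubicin, and 9.79% and 10.2% untreated. Dcx and Snap25 were at 0 in both wild-type libraries. Microglia marker sums overlapped between genotypes, at 857 and 1242 CPM in the deficient libraries with doxorubicin and without, against 979 and 1371 CPM in the wild-type libraries with doxorubicin and without. By the additive genotype test 1 of 12 rose and 2 fell, near the shares of all genes. With doxorubicin over untreated, 0 of 12 had a ratio above 1 in deficient cells and 1 of 12 in wild-type cells. Of all 15596 genes, 8387 and 7710 had a ratio above 1, in the same order. The additive doxorubicin term called 1 of the 12 lower, beside 0.141% of all genes. Fibroblast and ependymal marker sums overlapped as well, and endothelial sums were 8.14 to 10.2 CPM in deficient libraries against 19.9 to 22.5 CPM in wild-type libraries. The part of cell makeup in the members' differences was not tested.

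For each member the genes with the most similar profile were taken by the root mean square difference of log2(CPM + 1), centred on each gene's mean, over the 4 libraries, among 11419 candidate genes. E2f8 was nearest to Ska1 (0.0306), which builds kinetochores, then to Cdc25c and Dtl, which act in mitotic entry and in replication control. Wild-type counts with doxorubicin and without were few, 22 and 9 for E2f8, 10 and 1 for Ska1 and 8 and 1 for Cdc25c. At such counts the pseudocount of 1 CPM narrows differences between genes. The untreated count fold was 193 for Cdc25c (34.2 to 7677) against 28.0 for E2f8. Foxm1 was nearest to Cks2 (0.0875), Prim1 and Gins1, genes of the cell cycle and replication. The other risen members had other company: Mybl2 was nearest to Chga (0.069), Gap43 and Myl9, E2f5 to Mid1ip1 (0.00798), Rab13 and Tmem108, and E2f7 to Sept10 (0.0574), Ttf2 and St6galnac5. E2f3, high in a single library, was nearest to Uevld (0.0756), Garnl3 and Hist1h1b, and E2f2 to Ccdc122 (0.096), Pctp and Mllt6. With only 4 points, many genes share any given profile.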

How the data were processed

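RNA-seq libraries of mouse astrocytes were made with the SMART-Seq v4 Ultra Low Input kit, which does not mark strand, from 1.5 µg of total RNA, per the labels' protocols. The authors deposited, per the file headers, an estimated count and a TPM value for each gene in each library. The submitters' processing notes name DRAGEN and GRCm38. Its version and the annotation are not stated there. The estimated counts were rounded to whole numbers (5810 to 6451 genes per library had fractions). Of 55487 gene IDs, 55227 matched GENCODE vM21. Totals were 17481188 to 22559613 counts, so 3 counts, the floor used, are 0.131 to 0.174 CPM. CPM used TMM factors, and size calls used a pseudocount of 1 CPM and a minimum mean of 1 CPM. Intervals for the ratio of 2 libraries are exact conditional binomial (Clopper-Pearson).

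The additive test used edgeR 4.0.16 in R 4.3.3, with DESeq2 1.42.0 and limma 3.58.1 as alternatives, and was run on simulated data. The simulation gave every gene the same spread, estimated from these libraries, and no treatment effect. It therefore cannot show how far replicate cultures would differ. Python 3.11.15 with pandas 2.3.3 did the rest. Promoter windows came from RefSeq. Alternatives were other scalings, pseudocounts, minimums, TPM, no treatment or genotype term and each library left out.

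Named genes were the 10 members, Creb3l1, Cdkn1a, all DP, pocket protein and MuvB genes, up to 4 genes of each other list with the largest difference in each comparison (mean of at least 5 CPM) and the 3 nearest profiles per member, beside those said to be named after their values were seen. Members and lists were chosen with earlier results of these data known.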

Additional observations from a re-analysis of the deposited data

Results flagged for a closer look

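E2f3 stood out because the 2 genotypes moved in opposite directions with doxorubicin. It had 411 counts with doxorubicin and 161 without in deficient cells, and 179 with doxorubicin and 234 without in wild-type cells. The response in deficient cells minus that in wild-type cells was 1.605 on the log2(CPM + 1) scale. This difference was not tested, since each group holds 1 library, and the treatment label and the sex of the cells cannot be told apart. On the deposited TPM scale the difference was 1.65, and it stayed between 1.23 and 1.67 under the other scalings, pseudocounts and minimums.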

How the results depend on the processing

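Counts of members called between genotypes in single libraries stayed within 1.5 times of those given above under every scaling, pseudocount and minimum tried and on TPM, where untreated E2f5 was below the size call (0.97) and 4 members were higher. With a pseudocount of 5 CPM, E2f7 was below the size call after doxorubicin (0.82) and untreated (0.88), leaving 5 and 4 members higher. With 0.5 CPM, untreated E2f2 passed it (1.10), giving 6. For doxorubicin in deficient cells, 0 members were higher with a pseudocount of 5 CPM or on TPM, in place of 1, and 0 were lower with a pseudocount of 5 CPM, a minimum of 5 CPM or on TPM, in place of 1. The last 3 settings also left 0 members with a lower response in deficient than in wild-type cells. E2f2 lies under the minimum at 5 CPM and on TPM. In wild-type cells 1 member, E2f7, was higher with a pseudocount of 0.5 CPM. The additive genotype test called 4 to 5 members higher and 0 lower with all libraries, and 2 to 5 higher with 1 library left out and no treatment term. The lowest number, 2 (E2f8 and Foxm1), came without the deficient doxorubicin library, and the cause was not tested. On TPM the median of all genes moved to -0.20 for untreated deficient over wild type, with 1221 genes higher and 2095 lower, in place of 1527 and 1588, and to -0.09 after doxorubicin, with 1353 higher and 1795 lower, in place of 1670 and 1490. Over all alternatives the additive genotype test called 500 to 2320 genes higher and 500 to 1945 lower, and the doxorubicin test 0 to 26 and 0 to 73. No called member difference changed direction under these settings. The number in the titles follows the treatment, so the treatment term is also the replicate block: 5 members were higher with this pairing and 4 without it. No paired analysis was possible for doxorubicin, because its libraries share no number. Depth limits E2f8 in wild-type cells and E2f2, with 9 to 91 counts.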

Other observations

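Dividing a gene's estimated count by its TPM, scaled within a library on 381 genes with a single transcript, gives the transcript length the authors' software assumed. For E2f8 this was 3798 and 3548 bases in the deficient libraries with doxorubicin and without, against 3852 and 1674 bases in the wild-type libraries with doxorubicin and without. For E2f7 it was 2582 and 1971 bases in the deficient libraries with doxorubicin and without, against 2880 and 3323 bases in the wild-type libraries with doxorubicin and without. E2f1 kept 2765 to 2793 bases in all 4 libraries. The E2f8 and E2f7 folds on TPM therefore differ from the folds on counts, and the E2f8 value of 1674 bases rests on 9 counts.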
